A study of Mus musculus and synthetic construct with 21 samples.

Results

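The enhancer activity of 3000 native DNA elements of pool 3, 1500 named w and 1500 named c, was compared in 3T3-L1, a pre-adipocyte line from mouse that can be turned into fat cells in culture. They were taken by the name of each element, which gives the class (w or c), the form (native or altered), a number, a position in the mm9 genome and a sequence of 16 bases, and they are 3000 of the 6000 elements of the pool. The names do not spell out what w and c stand for, and a w element and a c element of the same number have different positions and are not a pair. The other 3000 elements, altered w and altered c, carry the same names in a form read here as having the motif altered, and serve below as values measured in the same way.

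The assay was a massively parallel reporter assay (MPRA), in which a reporter RNA made from each plasmid bears a barcode, here 16 bases long, that tells which element it came from. Barcodes are counted in RNA and in the plasmid library that was transfected. Both classes were in the same 2 libraries, out of 21 samples in the series, so they shared cells, transfection and sequencing. Per the labels' protocols, the induction medium held dexamethasone at 1 µM, insulin at 1.7 µM and IBMX at 0.5 mM, and was changed after 48 h. RNA was taken 16 h after transfection, per the series' design text. The RNA library held 37267216 counts and the plasmid library 56246463, over 15 barcodes an element. Each library was made once, so no value below has a replicate culture. Its errors are spreads over elements or over the barcodes of an element, and its p-values cover the spread between elements only.

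PPARγ, the receptor on which fat cell formation depends, is the target of the thiazolidinedione drugs. It binds DNA as a dimer with RXR, at a motif called DR1, a direct repeat of the hexamer AGGTCA with 1 base between the copies. PPARγ occupies the 5′ hexamer and also contacts bases just upstream of it, and RXR occupies the 3′ hexamer. At most genomic sites the motif is degenerate, and other factors bind the surrounding sequence.

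The sequences below are those of the 10 most active native w elements with at least 5 usable barcodes, listed from the highest, and they show how far the motif of a strong element can lie from the consensus. The 16 bases are given as the names give them, 5′ to 3′ in the direction of the motif, with capitals for bases that match a hexamer of AGGTCANAGGTCA, the 13-base consensus searched on both strands. Coordinates are of mm9, counted from 1.
w 912, chr5:24327468-24327483, minus strand: gctAGGgtAgAGGTCA
w 1024, chr7:17365684-17365699, minus strand: agtgGGagAaAGGTCt
w 4, chr11:100864516-100864531, minus strand: tgctGtgCAaAGGggA
w 30, chrX:72621688-72621703, plus strand: agtAaGgCAgAGGgaA
w 1433, chr11:101303705-101303720, plus strand: gtaAGGTgAaAGGTtA
w 1001, chr6:84551605-84551620, minus strand: actAGGaCAtgGGTCA
w 672, chr15:96831354-96831369, plus strand: agagtGgCAaAGtaCA
w 1493, chr19:3325542-3325557, plus strand: ggtAGGggAagGGgCg
w 1188, chr6:85381962-85381977, plus strand: acggGGTCAagGGTCA
w 691, chr8:28256996-28257011, plus strand: tgcAGGTCAgAGGaCA

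The 10 most active native c elements with at least 5 usable barcodes follow in the same order, to be set beside those of w.
c 1401, chr16:55617878-55617893, plus strand: aagActaCAgAGGTCA
c 488, chr1:5522029-5522044, plus strand: aaagGtcCAgAGtTCA
c 935, chr7:34820754-34820769, plus strand: gaagGtcCAgAGtTCA
c 480, chr9:54947893-54947908, plus strand: tggAGGcCAgAGGTCA
c 516, chrX:126808090-126808105, plus strand: aaagGtcCAgAGtTCA
c 252, chr11:44959373-44959388, minus strand: aatgGGTCAaAaGTCA
c 1347, chr11:26378625-26378640, minus strand: ttctGtTCAcAGGTCA
c 773, chr3:141307482-141307497, minus strand: attAGGTCAgAGtTtt
c 617, chr4:30938414-30938429, plus strand: agcAaGgCAgAGtTtA
c 1464, chr15:24477594-24477609, plus strand: ggtgGagCAagGGTCA

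Native w elements were more active than native c elements along the whole range, and the gap was widest among the most active ones. For each barcode with at least 20 plasmid counts, which makes it usable, log2 of RNA over plasmid was scaled to the library totals, and the median of these is the activity of the element. An activity of 0 is thus the ratio of the whole library. All 1500 elements of each class gave a value. Activity was -0.40 ± 1.39 in native w elements and -1.13 ± 0.95 in native c elements (mean ± SD over elements). The difference of the means was 0.73 (2-sided permutation test over elements, p = 1e-05, the smallest that 100000 permutations can give).

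At the 10th percentile activity was -1.76 in w and -2.22 in c, and at the 25th percentile it was -1.04 in w and -1.44 in c. The medians were -0.53 in w and -0.95 in c. At the 75th percentile activity was 0.18 in w and -0.63 in c, and at the 90th percentile 1.31 in w and -0.31 in c. The w minus c gap was thus 0.46, 0.39, 0.42, 0.81 and 1.61 at these 5 percentiles (permutation adjusted p of 2e-05 at the 10th and 1.25e-05 at the other 4). The median w element lay above 81.3% of c elements, and the 90th percentile of w above 99.1% of them. The lowest elements of the classes were close, at -5.80 in w and -5.75 in c, while the highest reached 5.87 in w and 3.27 in c. Both of the lowest had fewer than 5 usable barcodes. With at least 5, the lowest were -5.29 in w and -5.17 in c.

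Strongly active elements were mostly w. An element was called strongly active at an activity of 1 or more, a ratio at least 2 times that of the library totals. This held for 178 of 1500 native w elements (11.9%, exact Clopper-Pearson 95% interval 10.3 to 13.6%) and for 18 of 1500 native c elements (1.20%, 0.713 to 1.89%). Across all 5995 measured elements of the pool the share was 4.17%, and across the altered elements alone 1.8%. The shares of w and c differed by 10.7 percentage points, with an odds ratio of 11.1 (2-sided Fisher's exact test over elements, p = 2.99e-36, adjusted p = 4.49e-36 over 3 thresholds). Intervals cover counting error over elements only.

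At a higher threshold few c elements were left. At an activity of 2 or more, a ratio at least 4 times that of the totals, 91 w elements (6.07%) and 4 c elements (0.267%) remained, where the pool had 1.88% and the altered elements 0.601% (Fisher's exact test, adjusted p = 4.63e-23). At a lower threshold, the 95th percentile of altered c elements (-0.06), the counts were 459 w elements (30.6%) and 87 c elements (5.80%), where the pool had 13.4% and the altered elements 8.55% (Fisher's exact test, adjusted p = 7.98e-74). That level was passed by 5.80% of native c elements and 5.01% of altered c elements, whose own percentile it is.

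The strong w elements took up much of the RNA. The 178 elements made 24.5% of all RNA counts from 3.70% of the plasmid counts, while the 18 strong c elements made 0.637% of RNA from 0.142% of plasmid. All native w elements together made 46.5% of RNA from 29.0% of plasmid, and all native c elements 19.7% of RNA from 27.8% of plasmid. Activity is scaled to these totals, so the level of 0, and with it the count of strong elements, depends on what else was in the pool. A difference between the means or percentiles of the classes does not.

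The altered forms had lower mean activities in the same libraries, which were not tested against the native ones here. Altered w elements averaged -1.01 ± 1.12 (n = 1498) and altered c elements -1.31 ± 1.02 (n = 1497). Of the altered w elements 45 (3.00%) were strongly active, and of the altered c elements 9 (0.601%). The altered forms were also less deeply measured, with a median plasmid count of 4557 in altered w and 3480 in altered c elements, against 6740.5 in native w and 5470.5 in native c. The part of depth in their lower activity was not tested.

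Differences among w elements were repeated between barcodes better than differences among c elements. Activity computed from odd and from even barcodes correlated across native w elements with r = 0.669 (n = 1478), and across native c elements with r = 0.209 (n = 1465). These are descriptions across elements of the same 2 libraries, and c elements also span a narrower range (interquartile range 1.22 in w and 0.809 in c). Among elements with at least 12 usable barcodes r was 0.869 in w (n = 988) and 0.336 in c (n = 940). Strong activity appeared in both sets of barcodes for 158 of 1478 w elements (10.7%) and for 6 of 1465 c elements (0.410%, exact 95% interval 0.150 to 0.889%). In w, 195 elements were strong by odd and 185 by even barcodes, and in c 19 and 28.

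Depth differed between the classes and moved with activity. The median plasmid count of an element was 6740.5 in w and 5470.5 in c, and log2 plasmid counts averaged 12.4 ± 1.79 in w and 12.2 ± 1.90 in c (SD, permutation p = 0.00012). Usable barcodes averaged 11.6 ± 3.38 in w and 11.4 ± 3.60 in c (permutation p = 0.0552). Usable barcodes without any RNA count were 615 of 17461 in w (3.52%) and 948 of 17095 in c (5.55%). Elements with more plasmid counts had higher activity in both classes, as the means below show.

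Within 5 equal groups of plasmid count the w minus c gap was smallest in the shallowest, at 0.22, and lay between 0.67 and 0.90 in the other 4. In the shallowest group, up to 1565 plasmid counts, activity was -1.45 ± 1.57 in w (n = 270) and -1.67 ± 1.43 in c (n = 330). In the deepest group, from 14547 counts up, it was 0.03 ± 1.10 in w (n = 327) and -0.69 ± 0.34 in c (n = 273). There 49 w elements were strongly active (14.99%) and 0 of 273 c elements (exact 95% interval up to 1.34%). In the shallowest group the counts were 14 w elements and 7 c elements. The median barcode SD of an element was 0.578 in w and 0.674 in c in the deepest group, and 2.18 in w and 2.30 in c in the shallowest. Compared within these groups, w exceeded c by 0.66 (permutation within groups, p = 1e-05, the smallest possible). The part of depth in the remaining difference was not tested.

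The most active w elements were measured evenly by their barcodes. Element w 912, on chromosome 5, had the highest activity of the 3000, 5.87, a ratio 58.3 times that of the totals. It had 416709 RNA counts on 11117 plasmid counts, and its 15 barcodes ran between 4.20 and 6.20. Element w 1024, on chromosome 7, followed with 5.01 and 13 barcodes between 3.25 and 5.47. Element w 4, on chromosome 11, had 4.77, with 14 barcodes between 4.12 and 5.55. No barcode of these 3 elements came near the median of either class. Elements w 30 (4.71), w 1433 (4.57), w 1001 (4.52), w 672 (4.40), w 1493 (4.24), w 1188 (4.24) and w 691 (4.09) completed the 10. Their barcode SD lay between 0.147 in w 1188 and 1.40 in w 1433, where the lowest barcode was at -0.35, and w 1493 rested on 6 barcodes. The 10 elements alone made 6.87% of all RNA counts from 0.266% of the plasmid counts.

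These 10 motifs ranged from 1 to 5 mismatches to the consensus. Element w 691 had 1 mismatch and a full 5′ hexamer, the position PPARγ occupies, while w 912 had a full 3′ hexamer, the position of RXR. Elements w 4, w 672 and w 1493 had 5 mismatches each. With the motif altered, 7 of the 10 sites were still strongly active, and w 1024 (3.72), w 1433 (3.59) and w 672 (3.31) had the highest values. Element w 912 had 0.92 in the altered form, w 4 had 0.18 and w 691 had -0.51. The altered values of w 1024 and w 1433 came from barcodes with an SD of 2.06 and 2.90, and that of w 1493 (2.92) from 4 barcodes with an SD of 3.63. The 10 were chosen by their native activity, so no test between the forms is given.

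The most active c elements were weaker and less even. Element c 1401, on chromosome 16, had the highest c activity, 3.27, with 54192 RNA counts on 8466 plasmid counts and 14 barcodes between 1.75 and 3.85. It ended in a full 3′ hexamer and had all its 3 mismatches in the 5′ hexamer. Element c 488, on chromosome 1, had 2.55 (13 barcodes between 0.16 and 3.39) and c 935, on chromosome 7, had 2.20 (13 barcodes between -2.51 and 3.17). Elements c 480 (1.85), c 516 (1.84), c 252 (1.82), c 1347 (1.68), c 773 (1.57), c 617 (1.41) and c 1464 (1.33) followed. The barcode SD had a median of 0.397 in the 10 w elements and 1.33 in the 10 c elements. Among the latter it ran from 0.515 in c 252 to 3.39 in c 617, which rested on 5 barcodes. The 10 c elements also held fewer plasmid counts, 0.0925% of the library against 0.266% in the 10 w elements. The part of depth in their scatter was not tested. By even barcodes alone c 617 had -2.18, c 1464 -0.36 and c 516 0.61, so these did not reach the level of 1 there. By odd barcodes c 480 had 0.82 and c 773 had 0.99. Of the 18 strong c elements 14 had at least 5 usable barcodes, and of the 178 strong w elements 175. Over the whole classes 1389 of 1500 c and 1413 of 1500 w elements had as many.

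In the altered form 7 of the 10 leading w sites and 0 of the 10 leading c sites were strongly active. The c sites lay between -1.83 and -0.34. Over all altered elements the strong shares were 3.00% in w and 0.601% in c, so 0 of 10 lies near the share of its class. The sets were chosen by native activity and differ in it, so the counts are a description and no difference between classes was tested. Elements c 488 and c 516 had the same 16 bases.

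Elements at the low end had scattered barcodes in both classes. The 3 lowest w elements with at least 5 usable barcodes, w 934 (-5.29), w 561 (-4.99) and w 1124 (-4.50), had between 609 and 967 plasmid counts and 5 or 6 barcodes, of which 2 to 4 had no RNA count. The 3 lowest c elements, c 353 (-5.17), c 1079 (-4.49) and c 931 (-4.45), had between 564 and 2822 plasmid counts, with 3 or 4 barcodes without RNA. The barcode SD of the 6 lay between 1.78 and 3.12, and with barcodes without RNA left out w 934 was at 0.33. Their order could not be told at this depth.

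The motifs of w elements matched the consensus slightly better. Counted as the fewest mismatches of any 13-base window on either strand to AGGTCANAGGTCA, leaving the middle base free, w motifs had 3.55 ± 1.17 mismatches and c motifs 3.89 ± 1.15 (mean ± SD, n = 1500 each), a difference of -0.34 (permutation p = 1e-05, the smallest possible). In the 5′ hexamer, the side of PPARγ, w motifs had 2.16 ± 1.03 mismatches and c motifs 2.39 ± 1.05 (permutation p = 1e-05). In the 3′ hexamer, the side of RXR, they had 1.39 ± 0.886 in w and 1.496 ± 0.852 in c (permutation p = 0.00061). The GC content of the 16 bases was 51.3 ± 9.82% in w and 50.2 ± 10.8% in c (permutation p = 0.00205). The distributions overlapped widely, with a median of 4 mismatches in both classes.

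An exact match to the consensus was rare, and no element that held one was strongly active. It was held by 10 w elements (0.667%) and 3 c elements (0.200%), together 13 of the 3000 (0.433%). Their activity was -0.73 ± 0.85 in the 10 w elements, with the highest at 0.45, and lay between -1.42 and -1.27 in the 3 c elements. A share of 0 of 10 has an exact 95% interval up to 30.9%, which holds the 11.9% of all w elements. The first 2 exact matches of each class by name are shown to set them beside the motifs of the strong elements above.
w 1235, chr19:3912405-3912420, minus strand: tacAGGTCAaAGGTCA
w 1428, chr3:65319976-65319991, minus strand: agtAGGTCAaAGGTCA
c 1025, chr5:93324286-93324301, plus strand: cagAGGTCAgAGGTCA
c 261, chr2:31190559-31190574, minus strand: tggAGGTCAgAGGTCA
Activity was -0.52 in w 1235 (15 barcodes, SD 0.480) and -0.20 in w 1428 (11 barcodes, SD 1.21). It was -1.27 in c 1025 (14 barcodes, SD 2.05) and -1.35 in c 261 (13 barcodes, SD 1.60). The element w 1235, with 41712 plasmid counts, was among the most deeply measured, and its barcodes ran between -1.63 and 0.05.

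The base that differed most between the classes stood just upstream of the 5′ hexamer. The best window started at base 4 on the strand as named in 1495 w and 1488 c elements, which leaves 3 bases upstream. At base 3, just upstream of the hexamer, T stood in 49.9% of w motifs (exact 95% interval 47.3 to 52.5%) and 39.2% of c motifs (36.8 to 41.8%), the widest gap of any base at any of the 16 positions. A at that base stood in 15.9% of w and 23.7% of c motifs. The consensus G at base 5, in the 5′ hexamer, stood in 78.5% of w and 71.6% of c motifs, and the consensus T at base 14, in the 3′ hexamer, in 53.1% of w and 46.0% of c motifs. At the last base the order was turned, with the consensus A in 80.3% of w and 84.9% of c motifs. The middle base, which the score leaves free, was A in 62.0% of w and 57.1% of c motifs, and G in 34.2% of w and 40.9% of c motifs. These positions were not tested one by one.

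The upstream T also went with activity in w elements, as did other bases at other positions. Those with T at base 3 averaged -0.26 ± 1.45, with 108 of 746 strongly active (14.5%), and those with another base -0.54 ± 1.31, with 70 of 749 (9.35%). In c elements the values were -1.09 ± 0.92 with T (7 of 584 strong, 1.20%) and -1.15 ± 0.96 without (11 of 904, 1.22%). Among w elements, those with A at base 2 averaged -0.75, against -0.34 for the rest. With T at base 4 they averaged -0.77, against -0.34. With G at base 16, which is not the consensus base, they averaged -0.05, against -0.42. The T at base 3 was picked after its frequencies were seen and the others after their activities, so the values are a description.

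The gap in activity was nearly the same at equal numbers of mismatches. That number does not hold equal which bases mismatch, the middle base or the upstream bases, and the classes differed in these. Compared among elements with the same number of mismatches, w exceeded c by 0.71 (1489 w and 1495 c elements in 6 mismatch counts, permutation within counts, p = 1e-05, the smallest possible), against 0.73 without regard to mismatches. At 1 mismatch activity was -0.34 ± 1.15 in w (n = 57) and -0.96 ± 0.82 in c (n = 39), a gap of 0.63 (permutation adjusted p = 0.00339). At 3 mismatches it was -0.34 ± 1.37 in w (n = 427) and -1.21 ± 1.02 in c (n = 367), the widest gap, 0.87 (permutation adjusted p = 1.5e-05). At 6 mismatches, the highest count compared, it was -0.48 ± 1.19 in w (n = 56) and -1.22 ± 0.87 in c (n = 103). The gap there was 0.74 (permutation adjusted p = 2.4e-05). The gaps at 2, 4 and 5 mismatches were 0.77, 0.61 and 0.62 (permutation adjusted p = 1.5e-05 each). Whether these gaps differ from each other was not tested.

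Strong w elements were found at each mismatch count between 1 and 6. The share of strong w elements was 10.5% at 1 mismatch (6 of 57), 17.3% at 2 (34 of 197), 12.2% at 3, 11.03% at 4, 10.6% at 5 and 7.14% at 6 (4 of 56). The corresponding shares of c elements were 2.56% at 1 mismatch (1 of 39), 1.72% at 2 (2 of 116), 0.545% at 3, 1.92% at 4, 0.862% at 5 and 0 of 103 at 6 (exact 95% interval up to 3.52%). At each of these counts the share was larger in w. Elements with a full 3′ hexamer were strong in 36 of 230 w cases (15.7%) and 3 of 159 c cases (1.89%). Those with a full 5′ hexamer were strong in 9 of 77 w cases (11.7%) and 1 of 53 c cases (1.89%). Over the whole classes the shares were 11.9% in w and 1.20% in c. With 1 to 5 mismatches in the 5′ hexamer the w shares were 12.9%, 12.8%, 10.4%, 9.52% and 18.75% (3 of 16).

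The classes rarely shared an identical motif, and most motifs had a counterpart within 3 differences. The 1500 w elements held 1482 distinct sequences of 16 bases and the 1500 c elements 1412, and 17 were in both (1.15% of those in w, 1.20% of those in c). Allowing 1 difference, 149 w sequences had a counterpart in c and 139 c sequences one in w. Allowing 3 differences, 1450 of 1482 and 1389 of 1412 did. No distances within a class are given beside these, so they do not show how close the classes are. Across the 17 shared sequences activity was -0.73 ± 0.84 at the w sites and -1.38 ± 1.08 at the c sites (SD over sequences, averaged over sites that repeat a sequence). The w sites were higher for 11 sequences and the c sites for 6, with a mean difference of 0.65 ± 1.59 (SD over the 17 sequences), which was not tested. The 4 below, picked after their values were seen, show how widely the measured values of sites with 1 motif can differ. The part of barcode scatter in these differences was not tested.
w 1040, chr8:71404285-71404300, minus strand, and c 1241, chr11:71368689-71368704, plus strand: agaAGGggAaAGGgCA
w 547, chr1:60725954-60725969, minus strand, and c 483, chr10:88324969-88324984, plus strand: cctgGagCAaAGGTCc
w 282, chr10:117174228-117174243, plus strand, and c 261, chr2:31190559-31190574, minus strand: tggAGGTCAgAGGTCA
w 1041, chr5:124294795-124294810, minus strand, and c 1057, chr12:16575772-16575787, minus strand: tgtgtGaCAaAGGaCA
The first had an activity of 0.88 at w 1040 (13 barcodes, SD 0.377) and -3.20 at c 1241 (8 barcodes, SD 1.51). The second had -0.37 at w 547 (15 barcodes, SD 0.812) and -4.36 at c 483 (3 barcodes, SD 2.98). The third, an exact consensus match, had -0.60 at w 282 (13 barcodes, SD 1.95) and -1.35 at c 261. The fourth went the other way, with -2.49 at w 1041 (9 barcodes, SD 2.70) and -0.49 at c 1057 (12 barcodes, SD 0.910). The lowest values, at c 1241, c 483 and w 1041, rested on 3 to 9 barcodes.

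Repeated sequences were more common in c. In w, 14 sequences stood at more than 1 site, covering 32 elements and at most 4 sites each, and in c 37 did, covering 125 elements and up to 12 sites. Copies of a sequence differed in activity by an SD of 0.840 in w and 1.14 in c, against 1.39 and 0.948 over all elements of the class. The sequence actgaaggAaAGGcCA stood at 7 c sites on 6 chromosomes, with activities between -2.18 and -0.41. The sequence tggAGGTCAgAGGaCA, 1 mismatch from the consensus, stood at 3 w sites (-1.15 to -0.07) and 6 c sites (-1.37 to -0.65), and at none of them was activity strong. Over the whole classes 11.9% of w and 1.20% of c elements were strong, so none among so few sites lies near these shares. The sequence gaagGtcCAgAGtTCA of c 935 stood at 4 c sites, where activity lay between -2.11 and 2.20 with a median of -0.62.

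The class difference was present on every chromosome. Mean activity was higher in w than in c on 20 of 20 chromosomes, by 0.52 on chromosome 4 up to 1.41 on chromosome 13, with a median of 0.69. On chromosome 13 activity was 0.14 ± 1.63 in w (n = 46) and -1.27 ± 1.07 in c (n = 68). The share of strong elements was higher in w on all 20 chromosomes as well. Sites of w also lay closer together. Neighbouring w sites were within 200 bases of each other in 87 pairs, and c sites in 0. Both members of the pair were strong in 3 of the 87 pairs, 1 of them in 13 and neither in 71, and the members differed by a median of 0.96. Such w elements were strong in 18 of 164 cases (10.98%), and those outside in 160 of 1336 (11.98%).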

How the data were processed

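The deposited values are raw read counts per barcode, with 15 barcodes for each of 6000 elements, in 1 RNA and 1 plasmid library. That they count barcodes is stated in the design text of the series. The genome build is mm9, per the submitters' processing notes, and the counting tool is not given in the sources used here. Activity was log2 of RNA over plasmid counts, each with a pseudocount of 1, minus the log2 ratio of the library totals, taken as the median of all barcodes whose plasmid count was 20 or more. Barcodes with 0 RNA counts entered through the pseudocount. The depth of an element and the number of its barcodes set its precision.

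Native w and native c elements, grouped by their names, were compared with Python 3.11.15, numpy 2.4.6, scipy 1.17.1 and pandas 2.3.3. Means and percentiles were tested with 100000 permutations of the class over elements (2-sided), within mismatch counts that had at least 20 elements of each class where stated, and shares by Fisher's exact test. P-values were adjusted by Benjamini-Hochberg within each family. The functions were tested on simulated data. Named elements are the 10 highest and 3 lowest per class with at least 5 usable barcodes, and the first 2 per class by name with the fewest mismatches. Classes, thresholds and tests were chosen with earlier results of these data known. Alternatives were other count minimums, pseudocounts, summaries over barcodes, barcode subsets, scalings and element sets. The genes in the box are of another build and were not assigned to sites. Sequences also found on chromosome 18 are not shown.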

Additional observations from a re-analysis of the deposited data

Results flagged for a closer look

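Reads outside the measure of activity were found on barcodes of native elements that had 0 plasmid counts. These barcodes carried 652 RNA counts in all, on 402 of 7455 such barcodes (5.39%). A plasmid count of 0 does not show that the plasmid was absent. The counts entered no activity value, and no library without transfected plasmid was at hand to set them against.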

How the results depend on the processing

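The differences between w and c in activity and in strong shares kept their direction and their side of the threshold under the alternatives run. The difference of the means lay between 0.42 (by medians over elements) and 0.79, the difference at equal mismatches between 0.58 and 0.76, and the difference in the share of strong elements between 5.80 percentage points (threshold of 2) and 25.1 (scaled to the median of altered c elements). Of 230 tests under alternatives, 229 kept their call. The exception was usable barcodes, which with a minimum of 100 plasmid counts were 0.507 more per w than c element (permutation p = 0.00141). The count of 18 strong c elements was less steady. It was 11 with no count minimum, 36 with counts summed over barcodes, 30 with even barcodes and 88 when scaled to the median of altered c elements, where the w count was 465. With at least 5000 plasmid counts it was 8 of the 780 c elements kept, beside 122 of 891 in w. With at least 12 usable barcodes it was 9 of 940, beside 133 of 988 in w. Fewer elements were kept under both, which by itself lowers the count. These last choices, and permuting within groups of plasmid count, were added after seeing the data. The cause was not tested. The correlation of odd and even barcodes in w was 0.723 with no minimum, 0.638 with a minimum of 100, 0.735 with a pseudocount of 5 and 0.869 with at least 12 barcodes, and in c 0.336 with at least 12 barcodes. Of 270 values of named elements under alternatives, 257 moved by less than 1 barcode SD of the element. An element with scattered barcodes can pass that measure and still change sign. With no count minimum c 617 (barcode SD 3.39) went from 1.41 to -1.51. With a minimum of 100 plasmid counts c 1464 (SD 2.40) went from 1.33 to -0.25, and both passed. Element w 1493 (SD 0.174) did not pass there, going from 4.24 to 4.43. No paired analysis was possible because each library was made once and w and c elements of a number are not a pair.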

Other observations

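The X chromosome held 18 w and 77 c sites, and 1 of the 178 strong w elements and 3 of the 18 strong c elements lay there. Over the whole classes the strong shares were 11.9% in w and 1.20% in c. The few strong elements on X were not tested against these shares.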
